A study of Homo sapiens with 12 samples.

Results

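The comparison set the binding sites of IGF2BP3 against those of the METTL1-WDR4 complex in 6 PAR-CLIP libraries of HepG2 cells, a human liver cancer line. The members were the 2 IGF2BP3 libraries whose labels carry no bio2 mark and the 2 METTL1 and 2 WDR4 libraries, out of 12 libraries in the series. They held 47531 of the 102250 clusters deposited, a cluster being a stretch of RNA to which the authors' software assigned a crosslink. Same-strand clusters of a side that overlapped by 1 nt or more were merged, and a merged stretch that held clusters of 2 or more libraries of that side was called a site. By this rule there were 4865 IGF2BP3 sites and 4561 complex sites, which lay at 8044 distinct positions. Merged without the 2-library rule, the clusters of these 6 libraries lay at 31069 positions and those of the whole series at 45174.

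All 6 libraries were made from HepG2 cells grown for 14 h with 4-thiouridine (4SU) and irradiated at 365 nm, and no library was an input, untagged or knockdown control. A cell line is 1 genetic background, and the labels do not say whether libraries with the same protein name came from separate cultures, so the spread between them may be technical. The clusters carry no read counts. The depth behind a cluster is therefore unknown, a missing cluster does not show that the RNA was unbound or absent, and the intervals given here cover counting error over clusters or sites alone.

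IGF2BP3 belongs to a family of cytoplasmic proteins that bind mRNA through RNA recognition motifs and KH domains, is abundant in fetal tissue and in many tumors, and prefers sequences with CA, among them the CAUH motif (CAUA, CAUC or CAUU). METTL1 is the catalytic subunit and WDR4 the partner subunit of the enzyme that places internal N7-methylguanosine (m7G) on tRNA and on a subset of mRNA. The question behind the comparison was where a protein studied as a reader of m7G and the complex that writes it meet on the same RNA.

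The libraries held 6467 and 6831 clusters for IGF2BP3, 6615 and 8648 for METTL1, and 9765 and 9205 for WDR4 (replicates 1 and 2), with median widths of 38 to 41 nt. Of 8 hepatocyte markers 6 had a site (ALB, AFP, APOB, TF, SERPINA1 and FGB), while 1 of 10 markers of other cell types, the smooth muscle actin gene ACTA2, had one. The genes of APOA1 and TTR had none. Over all 20046 protein-coding genes 3172 (15.8%) had a site, so 1 of 10 lies near the share over all genes.

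Positions that show the 3 kinds of site are printed first as examples. The class values for motif and base content follow later and cannot be read from so few stretches. They were exonic, had a central 20 nt that occurs once in the genome, lay in every library of their side or sides and, for sites of one side alone, in no library of the other. The rule was met by 1216 IGF2BP3-alone sites, 18 complex-alone sites and 198 shared sites, and the 5 ranked first in each kind are given (most libraries of the series, then narrowest). This ranking favours sites that the IGF2BP1, IGF2BP2 and bio2 IGF2BP3 libraries also held. Of those 6 libraries, 5 held the complex-alone site in GPX4 and 4 held each other complex-alone site printed. All 6 held each printed IGF2BP3-alone and shared site. Coordinates are on hg38, the sequence is that of the RNA strand 5′ to 3′ with T for U, and capitals mark CATA, CATC or CATT. Of sites longer than 30 nt the central 30 nt are shown.

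The IGF2BP3-alone sites lay in the genes of 2 fibrinogen chains (FGG at chr4:154612036-154612059, minus strand, coding sequence, and FGA at chr4:154585424-154585451, minus strand, 3′ UTR), of the ubiquitin-conjugating enzyme variant UBE2V1 (chr20:50081909-50081934, minus strand, 3′ UTR), of the nonsense-mediated decay kinase SMG1 (chr16:18807327-18807353, minus strand, 3′ UTR) and of the desmosome protein desmoplakin, DSP (chr6:7586265-7586292, plus strand, 3′ UTR).
FGG: caatccaactcacttataatcctg
UBE2V1: aacCATActcactcactctccaccag
SMG1: caaattaCATTCATCaCATTacctctg
DSP: cttctCATCtaaatatttcCATAttctg
FGA: CATTtccttcttaactctctgttacacg

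The complex-alone sites lay in the genes of the lipid peroxide reductase GPX4 (chr19:1106605-1106634, plus strand, coding sequence), of the membrane protein CMTM3 (chr16:66612704-66612725, plus strand, 3′ UTR), of the growth factor IGF2 (chr11:2130503-2130525, minus strand, 3′ UTR), of the translation elongation factor EEF2 (chr19:3979383-3979412, minus strand, coding sequence) and of the transcription cofactor HCFC1 (chrX:153948231-153948260, minus strand, 3′ UTR).
GPX4: gcccacgcccttggagccttccaccggcac
CMTM3: ctggcgttggagcggaggcctg
IGF2: taacaggggggcagtgacaaaag
EEF2: CATAtCATCgcgggcgccggcgagctgcac
HCFC1: tagggtcgagcctaggggagcttgagggag

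The shared sites, found in all 12 libraries, lay in the genes of the secreted ligand WNT5A (chr3:55474476-55474494, minus strand, coding sequence), of the polyamine acetyltransferase SAT1 (chrX:23785690-23785715, plus strand, coding sequence), of the endoplasmic reticulum lectin OS9 (chr12:57721136-57721165, plus strand, 3′ UTR), of the proline synthesis enzyme PYCR1 (chr17:81932982-81933011, minus strand, 3′ UTR) and of TRIR (chr19:12730725-12730754, minus strand, 3′ UTR).
WNT5A: actggctctggggcggctg
SAT1: caatgaggtgtcgctgcagcagcatg
OS9: actctcactcaatcctcttcctctcctctg
PYCR1: attccccaacctcaacctcctttcttctct
TRIR: tcccccccttctcacctcctCATTctctct

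Of these, 4 of 5 IGF2BP3-alone stretches, 1 of 5 complex-alone stretches and 1 of 5 shared stretches held the motif. The IGF2BP3-alone stretches had 1 to 2 G each and the complex-alone stretches 7 to 15, while the shared ones ran from 0 in PYCR1 and TRIR to 9 in WNT5A.

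Most sites of either side had no partner on the other. Of the 4865 IGF2BP3 sites, 1449 overlapped a complex site by 1 nt or more, which is 29.8% (95% Wilson interval 28.5 to 31.1), and 3416 were alone. On the complex side 1382 of 4561 sites were shared, 30.3% (29.0 to 31.7), and 3179 were alone. The near-equal shares rested on unlike rules, because an IGF2BP3 site needed both of its 2 libraries and a complex site any 2 of 4. With the METTL1 libraries by themselves, which sets 2 libraries against 2, 17.9% of the IGF2BP3 sites and 42.8% of the METTL1 sites were shared, and with the WDR4 libraries by themselves 21.5% and 39.2%.

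The clusters of the complex recurred less than those of IGF2BP3. Of the merged IGF2BP3 stretches, 58.2% were found in both libraries, whereas 17.5% of the merged complex stretches were found in 2 or more of 4. From 71.6 to 76.0% of the clusters of an IGF2BP3 library overlapped one of the other replicate. The same share between METTL1 replicates was 23.05 to 30.5%, between WDR4 replicates 26.8 to 28.6%, and from METTL1 to WDR4 libraries 23.7 to 28.5%. A METTL1 library thus overlapped its own replicate and WDR4 to a like extent, and its overlap with IGF2BP3, 17.6 to 21.2%, lay just below both ranges. WDR4 libraries overlapped METTL1 in 18.3 to 22.3% of their clusters and IGF2BP3 in 17.2 to 19.2%. Seen from IGF2BP3, 20.8 to 24.8% of clusters overlapped METTL1 and 25.1 to 28.2% overlapped WDR4.

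A complex site was shared the more often, the more libraries it came from. The share was 16.9% (15.5 to 18.4) of the 2530 sites found in 2 of 4 libraries, 31.9% (29.1 to 34.9) of the 981 found in 3, and 61.1% (58.2 to 64.05) of the 1050 found in all 4. Sites found with METTL1 alone were shared in 13.7% of 424 cases and sites found with WDR4 alone in 15.0% of 907, and their intervals overlapped (10.7 to 17.3 and 12.8 to 17.5). Those sites come from 2 libraries each, and sites from 1 METTL1 and 1 WDR4 library were shared in 19.4% of 1199 cases (17.3 to 21.8). With the sites from 3 and 4 libraries included, 36.8% of 3230 sites with both subunits were shared. Some sites alone lay just short of the threshold, since 826 of the 3416 IGF2BP3-alone sites (24.2%) held a cluster of 1 complex library and 465 of the 3179 complex-alone sites (14.6%) one of 1 IGF2BP3 library. No cluster of the other side lay at 2584 and 2713 of them. Without WDR4 replicate 1 or 2 the complex-alone sites numbered 1902 or 1976, so their count depends on each WDR4 library. Of the 1449 shared IGF2BP3 sites, 706 were found in all 6 libraries and 312 in all 12 of the series.

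**Figure D1:**
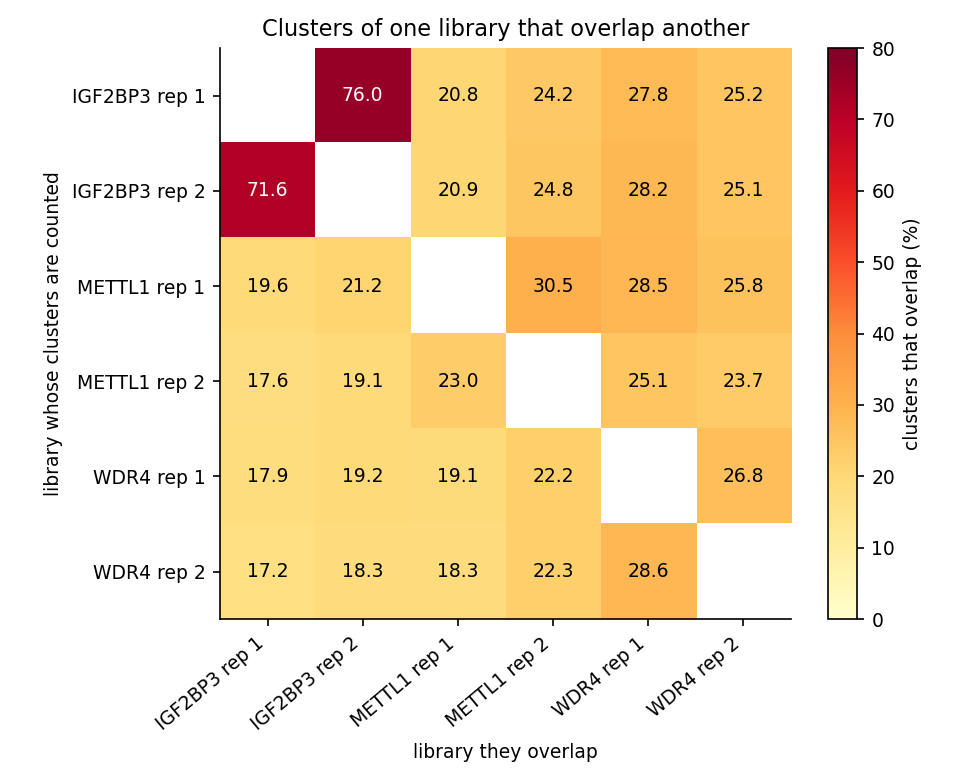
Percent of the clusters of one library (rows) that overlap a cluster of another library (columns) by 1 nt or more on the same strand, for the 2 IGF2BP3, 2 METTL1 and 2 WDR4 libraries, with darker shading for higher percents. The IGF2BP3 replicates overlap in 71.6 and 76.0% of their clusters, and every other pair in 17.2 to 30.5%.

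The sides differed in where on the transcript they lay. In the IGF2BP3 libraries 41.5% of the clusters were in 3′ UTRs in replicate 1 and in replicate 2, against 19.97% and 19.5% for METTL1 and 19.5% and 17.4% for WDR4. Introns held 21.9% and 21.0% of the IGF2BP3 clusters, 39.0% and 39.6% of the METTL1 clusters, and 42.9% and 44.2% of the WDR4 clusters. No complex library came within the IGF2BP3 range for either region, and the same held for coding sequence, 5′ UTR, other exons, intergenic stretches and other contigs, that is for 7 of 8 region measures (87.5%). By the two-sided exact permutation test over the 15 splits of 6 libraries, p = 0.0667 for the 3′ UTR difference of 22.5 percentage points and for the intron difference of −19.9 points, with adjusted p = 0.0889 over 8 measures. This design cannot give a p below 0.0667. The 3′ UTR difference depended on the intron and intergenic clusters in the denominator. Among exonic clusters of protein-coding genes it was 4.91 points (exact p = 0.333) and that of coding sequence 2.01 points (exact p = 0.667), while that of the 5′ UTR was −6.92 points (exact p = 0.0667). Coding sequence held 13.2% ± 0.425 (SD, n = 2) of the IGF2BP3 and 6.10% ± 1.89 (SD, n = 4) of the complex clusters, and 5′ UTR 1.13% ± 0.127 and 2.53% ± 0.890. For the 5′ UTR the exact p was 0.133 although the libraries did not overlap, because the METTL1 libraries (3.28% and 3.31%) stood apart from the WDR4 libraries (1.92% and 1.62%).

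**Figure D2:**
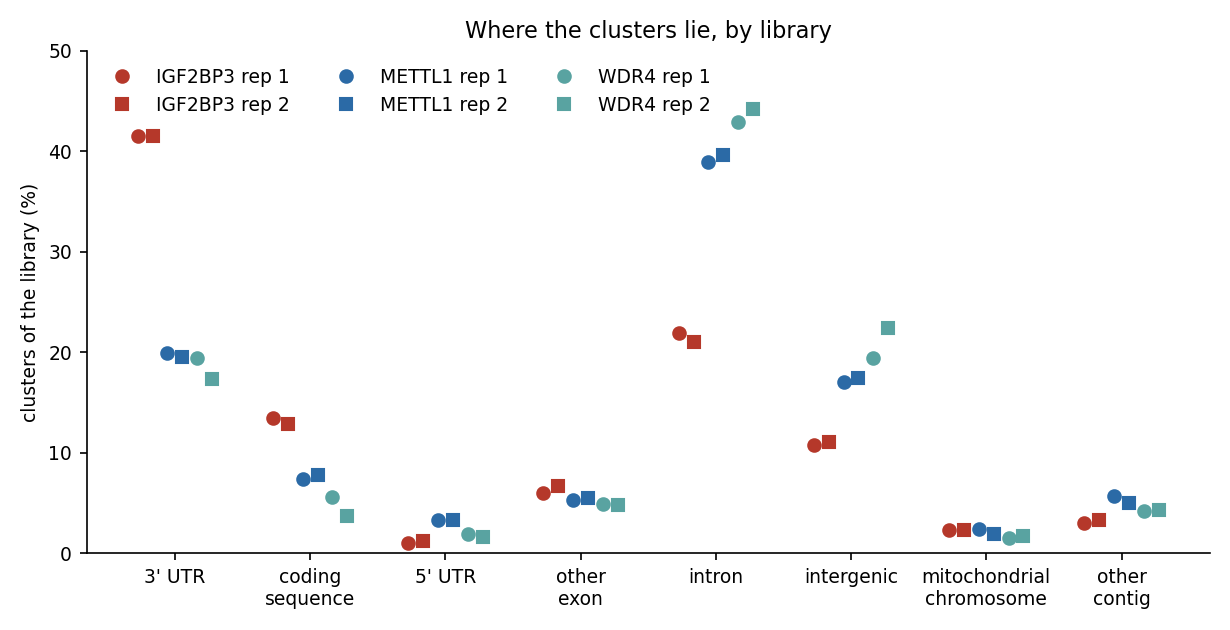
Percent of the clusters of each library that lie in each transcript region, each point a library (circles replicate 1, squares replicate 2). The IGF2BP3 points lie above the 4 complex points in the 3′ UTR (41.5 against 17.4 to 19.97%) and below them in introns (21.0 and 21.9 against 39.0 to 44.2%).

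Shared sites divided unevenly over the regions. In 3′ UTRs 30.4% of the IGF2BP3 sites and 51.6% of the complex sites were shared, and in coding sequence 19.9% and 45.8%. The order turned in 5′ UTRs, where 54.9% of 51 IGF2BP3 sites but 20.8% of 120 complex sites were shared, and in introns, with 22.8% of IGF2BP3 and 15.1% of complex sites. All 117 IGF2BP3 sites of the mitochondrial chromosome overlapped a complex site. There the merged sites were long, with medians of 111 nt for IGF2BP3 and 196 nt for the complex and a longest complex site of 2407 nt, against medians of 40 and 48 nt in 3′ UTRs.

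The 3 site classes accordingly had different makeups. IGF2BP3-alone sites were 43.9% 3′ UTR, 16.1% coding sequence and 21.0% intron, and shared sites (on the IGF2BP3 side) 45.1%, 9.39% and 14.6%. Complex-alone sites were 19.4% 3′ UTR, 5.06% coding sequence and 37.1% intron, with another 22.1% between genes. Repeated sequence moved with the class: the central 20 nt occurred once in the genome for 76.1% of IGF2BP3-alone sites, 52.8% of shared sites and 46.0% of complex-alone sites, and reads from repeated sequence may be placed at another copy. Its part in the differences was not tested beyond the values without such clusters. With single-copy clusters alone the complex-alone sites numbered 1455 and 20.8% of the IGF2BP3 and 31.7% of the complex sites were shared.

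The CAUH motif separated the sides as well. Cluster windows, widened by 10 nt at each end, held it in 73.8% and 72.1% of cases in the IGF2BP3 libraries, 37.0% and 38.1% in METTL1, and 42.2% and 42.9% in WDR4. After the value in windows of the same length 100 nt away was subtracted, the IGF2BP3 libraries stood 19.1 and 17.6 points above their flanks, and the 4 complex libraries stood −1.81 to −0.348 points from theirs (exact permutation p = 0.0667, adjusted p = 0.08 over 6 measures, the smallest possible here). Of the 6 motif and base measures, 5 (83.3%) did not overlap between the sides. G made up 12.6% ± 0.503 (SD, n = 2) of IGF2BP3 bases and 21.4% ± 2.20 (SD, n = 4) of complex bases, A 26.4% and 20.5%, and C 32.5% and 30.1%. The C difference of 2.46 points fell to 0.508 among 3′ UTR clusters (exact p = 0.4) and to 0.884 with the bio2 libraries added (exact p = 0.429). The T content, 28.5% and 28.1%, overlapped. The base before the cluster start, where RNase T1 cuts after G, was G in 94.6 to 94.7% of IGF2BP3 clusters, 86.1 to 86.2% of METTL1 clusters and 74.5 to 79.7% of WDR4 clusters, so the base at the cluster edge moved with the side, and its part in the G content was not tested.

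The shared sites lay between the other classes in motif and in G. In the 41 nt at the centre of each site the motif was present at 74.6% of IGF2BP3-alone, 47.1% of shared and 26.1% of complex-alone sites, with 44.5%, 36.1% and 29.0% in their own flanks, which gives the share of nearby stretches of the same length that hold it. The G content was 6.11% at IGF2BP3-alone sites (19.2% in flanks), 13.6% at shared sites (23.1%) and 22.1% at complex-alone sites (24.2%). Among 3′ UTR sites alone the motif was present at 70.9%, 52.1% and 22.6%. These class values describe sites whose classes rest on the same clusters and carry no test. Along the 3′ UTR sites, motif starts reached 3.91% of sites per nt at 6 to 10 nt upstream of the centre of IGF2BP3-alone sites, 2.90 times the level beyond 50 nt, and 2.66% at 5 to 9 nt downstream of the centre of shared sites, 2.01 times. Complex-alone sites had no peak, since their highest value near the centre, 1.17% at 20 to 24 nt, was equalled at 96 to 100 nt upstream.

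**Figure D3:**
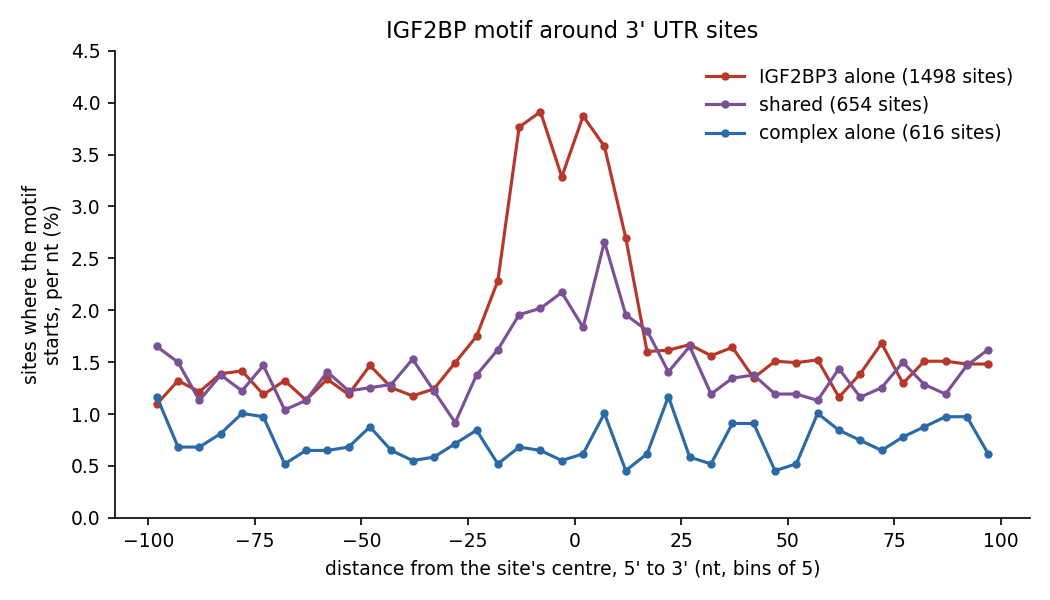
Percent of 3′ UTR sites at which the IGF2BP motif starts, per nt, against the distance from the site centre in nt, in bins of 5 nt, for 1498 IGF2BP3-alone, 654 shared and 616 complex-alone sites. The IGF2BP3-alone curve reaches 3.91% and the shared curve 2.66% near the centre, and the complex-alone curve has no peak, with 1.17% at 20 to 24 nt downstream and again at 96 to 100 nt upstream.

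Every 4-letter word was then compared in 1 fit. Of all such words, 76 (29.7%) were in a higher percent of IGF2BP3 than of complex windows and 144 (56.2%) in a lower percent, by limma with Benjamini-Hochberg adjustment below 0.05, and for 237 words (92.6%) the libraries of the sides did not overlap. Of the 76 higher words 2 contained a G (GCAU and AGCA), and all 144 lower words did, where 175 of all words do. CACA was present in 34.2% and 33.0% of IGF2BP3 windows and in 15.5 to 16.1% of the windows of the 4 complex libraries, 2.13 times as often (log2 difference 1.09 ± 0.0496 SE, limma adjusted p = 7.57e-05). The word ACCA followed with a log2 difference of 0.93, then ACAC with a difference of 1.09, CAAC with one of 0.91 and AUCA with one of 1.01. Of the motif words CAUA differed by 1.29 on that scale, CAUC by 1.08 and CAUU by 1.00. Among the lower words, GUUG was in 8.01% and 8.33% of IGF2BP3 windows and 15.1 to 17.5% of complex windows (log2 difference −0.98 ± 0.0751 SE, limma adjusted p = 0.000154), followed by CUUG with a log2 difference of −0.67, GAGU with one of −0.98, UGAG with one of −0.85 and GUCU with one of −0.77. Words overlap one another and follow base content, so their number is not a number of separate motifs. The fit took the METTL1 and WDR4 libraries as 1 group of 4 against 2 IGF2BP3 libraries. Its SE and p therefore rest on a spread between libraries that may be technical.

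The 6 libraries that took no part in the rule gave a further readout of the site classes. IGF2BP1 libraries, the largest in number of clusters (14502 and 15701), held 92.3% and 95.2% of IGF2BP3-alone sites, 97.8% and 98.2% of shared sites and 36.5% and 36.9% of complex-alone sites. IGF2BP2 libraries (4581 and 7469 clusters) held 28.2% and 39.0% of IGF2BP3-alone, 85.3% and 90.1% of shared and 21.6% and 31.6% of complex-alone sites. The IGF2BP3 libraries labelled bio2 (6457 and 6009 clusters) held 41.1% and 39.7%, 45.8% and 44.6%, and 10.2% and 9.75%. IGF2BP3-alone sites were thus recovered less often by the other libraries of IGF2BP3 itself than by those of IGF2BP1, and IGF2BP2 recovered the shared sites far more often than the IGF2BP3-alone ones.

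Over these 6 libraries the mean percent of sites found was 55.9 for IGF2BP3 alone, 76.9 for shared and 24.4 for complex alone. IGF2BP3-alone exceeded complex-alone sites by 31.5 points in 6 of 6 libraries, shared exceeded IGF2BP3-alone sites by 21.0 points in 6 of 6, and shared exceeded complex-alone sites by 52.5 points in 6 of 6. For each of these the two-sided exact sign-flip p was 0.03125, the smallest that 64 sign flips allow, and it was also 0.03125 after adjustment over the 3 comparisons. The libraries form 3 pairs of 1 protein each and are not independent. By rule the classes also differ in how many libraries hold a site, and complex-alone sites are those without an IGF2BP3 site. Complex-alone sites were found more often the more complex libraries held them (values below). The part of the rule in the differences between classes was not tested. On single-copy sites the shared excess over IGF2BP3-alone sites held in 4 of 6 libraries (19.2 points, exact p = 0.125). Leaving out IGF2BP2 brought the shared excess over IGF2BP3-alone sites from 21.0 to 4.52 points, and with fewer libraries the exact p cannot fall below 0.05.

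Within 3′ UTRs the proteins parted. Complex-alone sites were found at 65.6% and 65.4% by IGF2BP1, 38.6% and 52.3% by IGF2BP2 and 4.06% and 3.90% by bio2 IGF2BP3. The IGF2BP3-alone sites were found at 96.8% and 98.1%, 34.8% and 46.9%, and 50.1% and 49.2%. IGF2BP3-alone sites exceeded complex-alone sites in 4 of 6 libraries (24.3 points, exact sign-flip p = 0.125), and shared exceeded IGF2BP3-alone sites in 4 of 6 (12.3 points, exact p = 0.40625), while shared exceeded complex-alone sites in 6 of 6 (36.6 points, exact p = 0.03125). Over all regions, the more complex libraries held a complex-alone site, the more often the IGF2BP proteins were found there: IGF2BP1 at 28.1 to 28.8% of sites from 2 libraries and 64.7 to 65.9% of sites from 4, IGF2BP2 at 13.6 to 21.4% and 54.2 to 69.1%, and bio2 IGF2BP3 at 5.75 to 6.37% and 22.1 to 23.3%.

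**Figure D4:**
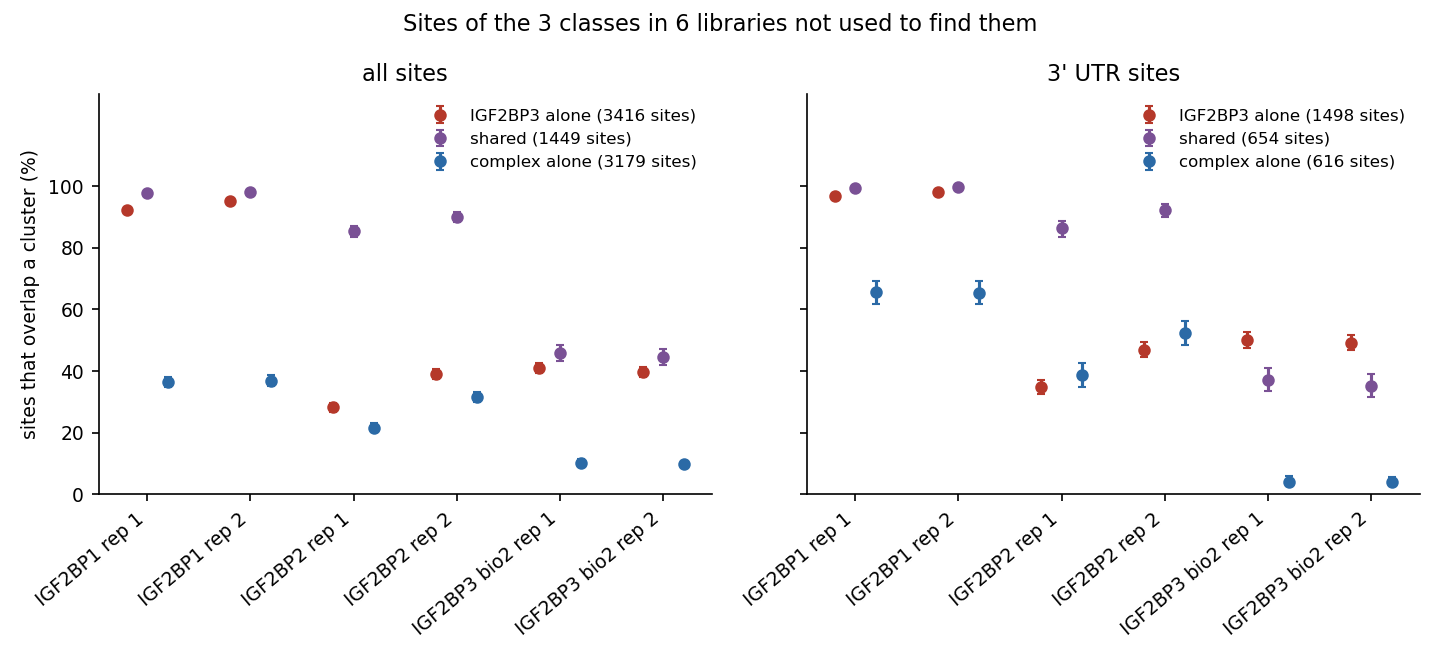
Percent of IGF2BP3-alone, shared and complex-alone sites that overlap a cluster in each of the 6 libraries not used to define them, for all sites (left) and 3′ UTR sites (right), with 95% Wilson intervals. Over all sites each library holds shared sites most often and complex-alone sites least often, while in 3′ UTRs the bio2 IGF2BP3 libraries hold 50.1 and 49.2% of IGF2BP3-alone but 37.2 and 35.2% of shared sites.

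Where clusters of the 2 sides met, their centres nearly coincided. The median distance between the centres of an IGF2BP3 cluster and the complex cluster it overlapped was 1 to 2 nt over the 8 pairs of libraries, and 65.9 to 69.0% lay within 5 nt. The METTL1 and WDR4 libraries had a median of 2 nt among themselves, with 65.3 to 68.6% within 5 nt, and the IGF2BP3 replicates a median of 0 nt with 88.7%. These values cover overlapping clusters alone, and most clusters start where RNase T1 cuts. A pair of an IGF2BP3 and a complex library had 388 to 669 identical intervals. The part of common cut positions in the distances was not tested. Sites of one side alone do not overlap the other side by rule, so the shortest distances between centres could not occur. Of 1439 IGF2BP3-alone sites placed on a 3′ UTR, 74.4% had no complex site in that UTR, 4.52% had the nearest at 51 to 200 nt, and where one was present the median distance was 700 nt (368 sites). Of 587 complex-alone sites 54.2% had no IGF2BP3 site in the UTR, 9.37% had the nearest at 51 to 200 nt, and the median distance for the other 269 was 649 nt. Along the UTR the classes lay alike, with median relative positions from the stop codon of 0.417 for IGF2BP3-alone, 0.371 for shared and 0.433 for complex-alone sites.

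At the level of genes, 3172 protein-coding genes had a site of either side. IGF2BP3 sites alone were found in 1362 (42.9%), complex sites alone in 810 (25.5%), both at different sites in 278 (8.76%) and both at the same site in 722 (22.8%). These percents are fixed by the rule and carry no test. A gene counted as having both at the same site if any of its sites was shared, and apart if none was. Genes of the first kind had a mean of 4.18 sites of both sides and those of the second 2.71. The order of the 722 and 278 genes therefore depends on this rule. On exonic sites the classes held 1229, 422, 121 and 634 of 2406 genes. Of the 810 complex-alone genes 587 had no IGF2BP3 cluster at all, and of the 1362 IGF2BP3-alone genes 361 had no complex cluster in any of 4 libraries. Of 442 non-coding genes and pseudogenes with a site, 157 had IGF2BP3 alone, 195 the complex alone, 15 both apart and 75 both together. The median 3′ UTR was 2341 nt in IGF2BP3-alone genes, 1508 nt in complex-alone genes, 2476 nt and 2317 nt in genes with both apart and together, and 1029 nt over all protein-coding genes, and the class counts were not adjusted for it.

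The IGF2BP3-alone genes with the most sites bound the protein in coding sequence, introns or 3′ UTR. ALMS1, a centrosome and cilium protein, had 6 sites in its coding sequence, with 7 and 8 clusters in the IGF2BP3 libraries, 1 and 0 in METTL1 and 1 and 1 in WDR4. BPTF, the largest subunit of the NURF chromatin remodeller, had 6 sites, 4 of them coding, with 7 and 6 clusters against 4, 3, 2 and 3, so its complex clusters did not recur at one place. PSAT1, an enzyme of serine synthesis, had 6 intron sites (7 and 8 clusters against 0, 0, 2 and 1), and SYNJ2, an inositol phosphatase, 6 intron sites of which 1 was single-copy (8 and 7 against 1, 1, 0 and 1). ARPP19, an inhibitor of the phosphatase PP2A in mitosis, had 5 sites in its 3′ UTR (5 and 5 clusters against 0, 1, 2 and 0). ARSB, a lysosomal sulfatase, had 5 sites over 3′ UTR, coding sequence and introns (5 and 5 against 1, 0, 3 and 0). In all 6 genes each IGF2BP3 library had more clusters than any complex library, as the rule favours.

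Several complex-alone genes with the most sites rested on repeated sequence. AKAP6, an anchoring protein for protein kinase A, had 8 intron sites and CCDC200 6, and none of them was single-copy. The clusters of CCDC200 numbered 4, 6, 5 and 8 in the complex libraries and 0 in all 8 others. TIMM29, a part of the mitochondrial inner membrane translocase, had 5 intron sites of which 1 was single-copy (3, 3, 4 and 6 clusters against 0 and 0 for IGF2BP3), and IGF2BP1 and IGF2BP2 libraries had 4 to 6 clusters there. TMEM170A had 5 sites in its 3′ UTR, 1 of them single-copy. Its clusters numbered 1, 4, 4 and 3 in the complex libraries against 1 and 3 in IGF2BP3, so the sides hardly differed there in clusters. CTDNEP1, a phosphatase of the nuclear envelope, had 4 sites over UTRs and coding sequence, 1 of them single-copy (2, 2, 5 and 3 clusters against 1 and 1). FASN, the fatty acid synthase, was the exception with 4 single-copy sites, 3 of them coding. Its clusters numbered 8 and 10 in METTL1, 4 and 1 in WDR4 and 1 and 1 in IGF2BP3, with 13 and 15 in IGF2BP1.

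Of the 6 genes named with both sides at different sites, the sides had no region in common in 1. That gene, NUFIP2, an RNA-binding partner of FMRP, had 3 coding and 1 3′ UTR site of IGF2BP3 and 2 intron sites of the complex. RELN, a secreted glycoprotein, had 2 coding and 2 intron IGF2BP3 sites and 2 intron complex sites, and A2M, the plasma protease inhibitor alpha-2-macroglobulin, 2 coding and 4 intron IGF2BP3 sites and 1 intron complex site. MEX3A, a KH domain protein, turned the numbers around with 1 IGF2BP3 site in the 3′ UTR and 5 complex sites, 3 in the 5′ UTR and 2 in the 3′ UTR, all single-copy. Its clusters numbered 1 and 1 in IGF2BP3, 0 and 4 in METTL1 and 5 and 6 in WDR4, so METTL1 replicate 1 held none. GGA2, a clathrin adaptor of the Golgi, had 4 IGF2BP3 and 2 complex sites. The 11 intron sites of IGF2BP3 in VAV2, a guanine nucleotide exchange factor, were all in repeated sequence and stood against 1 complex site.

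Genes with shared sites carried the most sites of all, with a mean of 4.18. By rule 1 shared site places a gene in this class, which favours genes with many sites, and the genes named were those with the most shared sites. IGF2, the fetal growth factor transcript for which the IGF2BP family is named, had 29 IGF2BP3 sites and 32 complex sites, 27 and 25 of them shared. Of all these sites 21 and 24 lay in the 3′ UTR. All 6 libraries were alike there, with 33 and 31 clusters in IGF2BP3, 34 and 37 in METTL1 and 37 and 32 in WDR4, and the bio2 libraries had 17 and 19. APOB, the apolipoprotein of low-density lipoprotein, had 23 IGF2BP3 sites, 18 of them coding, and 15 complex sites, with 10 shared, and its clusters numbered 27 and 26 against 10, 17, 20 and 10. PLBD2, a lysosomal protein, had 12 and 13 sites, all in the 3′ UTR, of which 10 IGF2BP3 and 12 complex sites were shared. MDM2, a ubiquitin ligase, had 10 and 15 sites with 9 shared, and 7 of its complex sites were intronic against 1 of IGF2BP3. The mitochondrial transcripts MT-CYB, of respiratory complex III, and MT-ND4, of complex I, had 7 IGF2BP3 sites each, all shared, against 5 and 2 complex sites.

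**Figure D5:**
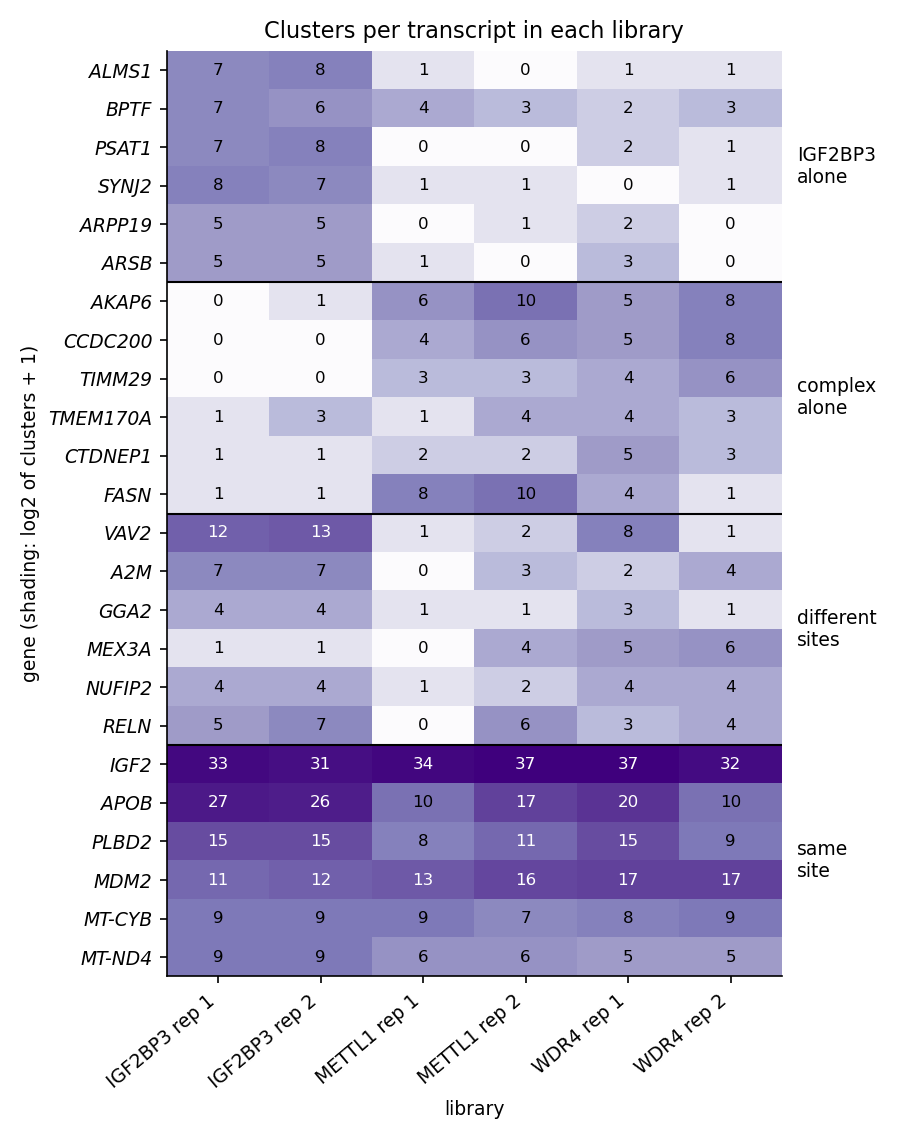
Number of clusters per library (columns) in the 6 protein-coding genes (rows) with the most sites in each gene class, with shading by log2 of clusters plus 1. IGF2 has 31 to 37 clusters in each of the 6 libraries, ALMS1 has 7 and 8 in IGF2BP3 and at most 1 in the others, and CCDC200 has 0 in IGF2BP3 and 4 to 8 in the others.

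Of the 5 transcripts to which the study tethered IGF2BP3 or METTL1, 4 had a site. BPNT2, a Golgi phosphatase, had 1 shared site in its 3′ UTR, and ZDHHC9, a palmitoyltransferase, 1 shared site in its coding sequence, with a cluster in each of the 6 libraries in both genes. HUWE1, a large ubiquitin ligase, had 2 coding IGF2BP3 sites (2 and 2 clusters) and no complex site (0, 1, 2 and 0 clusters). NDRG1, a stress-response protein, had 1 site of each side in the 3′ UTR at different positions. CYRIB, a regulator of the actin cytoskeleton, had no site, with 1 cluster in each WDR4 library and none in IGF2BP3.

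Lists of genes are given beside the shares over all genes with a site, which were 42.9% IGF2BP3 alone, 25.5% complex alone, 8.76% both apart and 22.8% both together. Over all 20046 protein-coding genes 3172 (15.8%) had a site, a share that also depends on expression, which these files do not give. Among 11 known IGF2BP targets 7 had a site, and 4 of them a shared one: IGF2, the chromatin protein gene HMGA2 (8 IGF2BP3 and 4 complex sites, 4 shared), and the family's own IGF2BP1 (3 and 6, 3 shared) and IGF2BP2 (5 and 3, 3 shared). The transcript of IGF2BP3 itself was complex-alone, with 2 sites, 4 clusters in each of the 4 complex libraries and 0 and 1 in the IGF2BP3 libraries. Of 28 genes of secreted liver plasma proteins 16 had a site, which fell 3, 2, 5 and 6 over the classes. Those together at a site were ALB, APOB, APOH, SERPINA1, FGB and FN1. FGA was IGF2BP3-alone with 2 sites, and VTN and F2, vitronectin and prothrombin, were complex-alone with 1 each.

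Of 79 cytosolic ribosomal protein genes 14 had a site, and 7 of the 14 were complex-alone (RPL10A, RPL23A, RPL27A, RPL34, RPL37A, RPS20 and RPS23), while RPL15 was IGF2BP3-alone. RPS29 had the most, with 6 IGF2BP3 and 4 complex sites. Ribosomal protein genes have many pseudogene copies, and their clusters may be placed at another copy. Of 25 translation factor genes 17 had a site (7 IGF2BP3-alone, 6 complex-alone, 1 apart and 3 together), among them EEF2 with 4 IGF2BP3 and 5 complex sites, 4 of each shared and the fifth printed above, and EEF1A1 with 3 complex sites alone. Of 30 genes of chromatin remodellers and histone methyltransferases 19 had a site: 8 were IGF2BP3-alone, among them BPTF and ARID2 (4 sites), 8 had a shared site, among them KMT2D (4 and 3 sites, 2 shared), and 2 were complex-alone.

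The remaining lists were short. Among 15 genes of the RNA exosome and the XRN nucleases 4 had a site, EXOSC2, EXOSC10 and DIS3 for IGF2BP3 alone (1, 1 and 2 sites) and EXOSC6 for the complex alone (3). Of 12 microRNA pathway genes 6 had a site, with AGO2, an Argonaute protein, shared, TNRC6B and DICER1 apart, and TNRC6A, DROSHA and DGCR8 IGF2BP3-alone. In cholesterol and fatty acid metabolism 12 of 22 genes had a site. SCD, the stearoyl-CoA desaturase, had 8 IGF2BP3 and 11 complex sites, with 5 of the IGF2BP3 sites shared. Of 30 genes of cyclins, CDKs and cell cycle regulators 14 had a site (2, 4, 2 and 6 over the classes). The cyclin gene CCNT1 had 3 sites of each side, all shared. Of 10 m7G writers, cofactors and readers 4 had a site, QKI for IGF2BP3 alone besides the 3 IGF2BP genes.

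Transfer RNA, the classical substrate of METTL1-WDR4, was rare in the clusters but divided by side. IGF2BP3 libraries held 0 clusters in tRNA genes, of 6467 and 6831, and METTL1 libraries 24 and 33, and WDR4 libraries 13 and 10. Of 465 tRNA genes 17 had a cluster in 2 or more complex libraries and 0 in both IGF2BP3 libraries. The bio2 IGF2BP3 libraries held 15 and 20 such clusters, so a count of 0 did not extend to all libraries of the protein. Contigs that carry ribosomal DNA held 1.72% and 1.83% of IGF2BP3 clusters, 4.10% and 3.35% of METTL1 clusters, and 2.53% and 2.50% of WDR4 clusters. Many tRNA genes are identical in sequence, and the authors' alignment kept reads with several matches up to a limit, so a cluster may lie at another copy.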

How the data were processed

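Per the labels and the study's methods, the authors labelled HepG2 cells with 4SU, crosslinked, digested with RNase T1, immunoprecipitated each protein, filtered reads by quality and length, collapsed identical reads, aligned them with Bowtie to hg38 and called clusters with PARalyzer. Per the methods Bowtie allowed mismatches and kept the best matches of reads with several, up to a limit. Versions and PARalyzer settings are not given in the sources used here. The deposited files list each cluster as a chromosome, start, end and strand, with no count or score beside it, and the authors called clusters per library. Starts were read as 1-based, because the base before the start was G in 74.5 to 94.7% of a library's clusters.

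Clusters of a side were merged (1 nt, same strand), and sites were assigned to GENCODE release 44 by their midpoint. Overlap was computed in Python 3.11.15 with numpy 2.4.6. Region, motif and base shares were compared by two-sided exact permutation, words by limma 3.58.1 in R 4.3.3 on log2 percent of windows, and site classes in the 6 other libraries by exact sign flips, with Benjamini-Hochberg adjustment at 0.05. Scripts were tested on simulated data. The genome copy was unmasked, so repeats were measured by counting copies of the central 20 nt. Named genes were the tethered transcripts, the 6 protein-coding genes with the most sites of each class and list members with a shared site, to which list members of other classes were added after their values were seen; words were the 5 with the lowest p in each direction. Sites, lists and rules were chosen with earlier results of these data known.

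Replicate numbers come from the labels, which do not say that a number marks a shared day or batch. Differences between replicates 1 and 2 of the proteins correlated at 0.0021, −0.0040 and 0.0072 over 31069 merged positions, so libraries were not treated as paired.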

Additional observations from a re-analysis of the deposited data

Results flagged for a closer look

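In the libraries not used to define the sites, some differences between site classes ran one way with 1 protein and the opposite way with the others, in both libraries of each. Whether the proteins differ was not tested. Among 3′ UTR sites, IGF2BP3-alone minus complex-alone sites came to −3.86 and −5.34 percentage points in the IGF2BP2 libraries, against 31.2 and 32.6 in IGF2BP1 and 46.0 and 45.3 in bio2 IGF2BP3. Among coding sequence sites the same difference was −2.14 and −4.29 points in IGF2BP2, against 41.1 and 44.4 in IGF2BP1 and 57.0 and 57.1 in bio2 IGF2BP3. Shared minus IGF2BP3-alone sites came to −12.9 and −14.0 points in the bio2 IGF2BP3 libraries for 3′ UTR sites, and to −5.12 and −10.3 points for coding sequence sites, and it was above 0 in both other proteins. For single-copy sites it was −0.632 and −0.631 points in the bio2 libraries, close to 0. The bio2 libraries had median cluster widths of 34 and 35 nt against 40 to 43 nt in the IGF2BP1 and IGF2BP2 libraries, and the part of width in these differences was not tested.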

How the results depend on the processing

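Region, motif and word differences kept their direction except as given below, but some sizes moved. With exonic clusters of protein-coding genes as the denominator, the 3′ UTR difference went from 22.5 to 4.91 points, coding sequence from 7.08 to 2.01 and 5′ UTR from −1.40 to −6.92. Coding sequence was 4.04 with wide clusters, and C went from 2.46 to 0.508 among 3′ UTR clusters. With wide clusters intergenic went from −8.19 to −2.74 points and 5′ UTR to −0.310. With single-copy clusters other exon went from 1.21 to 0.454 points and other contig from −1.66 to −0.471, while 5′ UTR went to −3.13. Other contig was −0.667 with the bio2 libraries added. Counts of sites and genes moved with the rule. The cause of each move was not tested, except that rules with fewer libraries or clusters have fewer sites to count. With METTL1 libraries alone there were 1106 complex-alone sites, 871 and 829 shared sites (IGF2BP3 and complex side, 17.9% of IGF2BP3 sites), and 249, 117 and 383 genes with the complex alone, both apart and both together. WDR4 libraries alone gave 1552 complex-alone sites and 376 and 160 genes of the first 2 kinds. Sites in 3 or more of 4 complex libraries gave 1076 complex-alone sites, 47.0% of complex sites shared and 215, 115 and 458 genes. Single-copy clusters gave 1455 complex-alone sites, 682 and 675 shared sites and 530 and 160 genes. Clusters at or above the median width gave 1517 IGF2BP3-alone, 1533 complex-alone, 866 and 822 shared sites and 720, 527, 111 and 457 genes. Exonic sites, a setting chosen after seeing the data as were coding sequence sites, intron sites, fixed windows and leaving out a whole protein, gave 422 complex-alone genes and 121 with both apart. Without 1 complex library in turn, complex-alone sites ran from 1902 to 2466 and complex-alone genes from 456 to 600, and the lowest of each were without WDR4 replicate 1. Leaving out an IGF2BP3 library leaves 1 library, so no site could be called by the rule.

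With the bio2 libraries added to IGF2BP3, exact p fell to 0.0286, the smallest for 4 against 4, for 3′ UTR (19.4 points), coding sequence (10.7), 5′ UTR (−1.28), other exon (2.43), intron (−22.9), intergenic (−8.11), motif (32.3), motif minus flanks (22.1), A (5.43) and G (−6.76). Reversals were limited to values with no difference beyond the spread: the mitochondrial share with single-copy clusters (−0.319 points) and T content with wide clusters (−0.190), without METTL1 replicate 1 (−0.229) and without METTL1 replicate 2 (−0.0755), T ranging from −0.229 to 1.26 over the libraries left out. The words called higher numbered 66 to 80 and lower 96 to 175 over all settings.

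In the unused libraries, IGF2BP3-alone minus complex-alone sites missed the threshold for 3′ UTR (24.3 points) and coding sequence sites (32.2), and shared minus IGF2BP3-alone sites for 3′ UTR (12.3), single-copy (19.2) and coding sequence sites (17.9). With a library or protein left out no exact p below 0.0625 is possible. The differences then ran from 18.7 to 43.7, from 4.52 to 29.4, and, for shared minus complex-alone, from 48.1 to 61.2 points.

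With the replicate block (9 arrangements) the region and motif differences were the same, 22.5 points for 3′ UTR and 32.9 for the motif, with a smallest exact p of 0.111, and 73 words were higher and 135 lower. It changed no other call. Of 63 named genes 0 to 24 changed class per setting. Depth per cluster is unknown, so a site missed for few reads cannot be told from an unbound one.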
